A study of Homo sapiens with 2 samples.

Results

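Small nucleolar RNA host genes are long noncoding RNA genes whose introns carry small nucleolar RNAs (snoRNAs), the guides that direct methylation and pseudouridylation of ribosomal RNA. The 10 symbols considered were GAS5, SNHG1, SNHG5, SNHG6, SNHG7, SNHG8, SNHG12, SNHG15, SNHG16 and ZFAS1. A probe set was taken as a member where 1 of these was the only gene symbol in its row of the platform's annotation. By this rule 5 probe sets of 2 genes were members, 4 of ZFAS1 and 1 of GAS5, out of 19775 genes with a probe set of their own. The other 8 symbols occur only in rows that list several symbols. Those rows, and further such rows of GAS5, make 16 probe sets that are described separately by their identifiers, and no gene is given a value from them.

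The cells were Eol1 (EOL-1), a human eosinophilic leukaemia line that expresses the FIP1L1-PDGFRA fusion kinase. The treated culture received 100 nM Glivec (imatinib, an inhibitor of PDGF receptor, KIT and ABL kinases) for 4 h, and the other culture was left untreated. Both were grown in RPMI medium with serum and washed with PBS before total RNA was taken, and each gave 1 Affymetrix array. With 1 array per group no test between the groups was possible and no difference has a replicate check. Whether the cultures differed in cell number or in RNA per cell cannot be told from these arrays. Precision is limited by there being 2 arrays in all.

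A host transcript is spliced, its exons are exported, and the snoRNAs are released from the excised introns. Many host genes, GAS5 among them, begin transcription at a terminal oligopyrimidine tract, a run of C and T bases that they share with ribosomal protein genes. The spliced exons carry little or no conserved reading frame, and for GAS5 and several others they are known substrates of nonsense-mediated decay, which couples their level to translation. GAS5 was first found among transcripts that accumulate in growth-arrested cells. ZFAS1 hosts box C/D snoRNAs and lies head to head with the protein-coding gene ZNFX1.

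The start regions of the member genes are shown because shared promoter features are a usual way to group host genes. The windows run from 250 bases before to 50 bases after the annotated start and come from RefSeq, build GRCh38.p14, which had an entry for 8 of the 10 symbols. ZFAS1 is at chr20:49278392-49278691 on the plus strand, and the GAS5 window is at chr1:173868996-173869295 on the minus strand. Capitals mark the motif TATATAA, searched on both strands, where overlapping matches on opposite strands merge, and CTTTC, searched on the transcript strand within 10 bases of the start.
ZFAS1: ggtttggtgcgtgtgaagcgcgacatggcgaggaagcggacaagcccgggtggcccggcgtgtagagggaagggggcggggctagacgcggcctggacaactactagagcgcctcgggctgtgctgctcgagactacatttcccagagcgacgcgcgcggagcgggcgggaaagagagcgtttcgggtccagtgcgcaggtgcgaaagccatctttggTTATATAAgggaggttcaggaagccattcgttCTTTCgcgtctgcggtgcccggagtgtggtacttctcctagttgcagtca
GAS5: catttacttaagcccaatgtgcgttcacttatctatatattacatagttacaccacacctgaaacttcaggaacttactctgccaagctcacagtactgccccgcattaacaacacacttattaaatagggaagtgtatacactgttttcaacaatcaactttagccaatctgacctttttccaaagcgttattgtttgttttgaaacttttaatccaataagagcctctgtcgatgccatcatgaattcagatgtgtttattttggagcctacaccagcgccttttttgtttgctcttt
The CTTTC of ZFAS1 begins at the annotated start itself, at base 1 of the transcript, and its TATATAA matches begin 32 and 31 bases upstream. Of 35116 promoter windows of the same length, 3.1% held CTTTC within 10 bases of the start and 2.57% held TATATAA. The E-box CACGTG, searched on both strands, was in 7.26% of windows and in neither of the printed ones. Among the other symbols with a window, CTTTC near the start was in SNHG8 and SNHG12, TATATAA in SNHG5 and SNHG12, and CACGTG in SNHG7. The GAS5 window held none of these letters and had a GC content of 37.7%, against 62.0% for ZFAS1 and a median of 58.7% over all windows. It is drawn at the outermost annotated start of a gene with many annotated transcripts.

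The 3 bright probe sets of ZFAS1 were all higher on the Glivec array. Probe set 226227_x_at had a signal of 5915 with Glivec and 3761 without, a 1.57-fold difference or a log2 ratio of 0.65. Probe set 224915_x_at had signals of 5738 with Glivec and 3801 without (log2 ratio 0.59). Probe set 226835_s_at had 5195 with Glivec and 3510 without (log2 ratio 0.57). These are MAS5 signals on a linear scale, deposited with equal trimmed means, and the ratios are Glivec over untreated. The 3 ratios lie within 0.09 of each other, but the _x_at and _s_at suffixes mark probe sets that can bind other or several transcripts, so they need not be independent readings.

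The remaining ZFAS1 probe set went the other way at a low level. Probe set 229899_s_at had a signal of 31.6 with Glivec and 46.6 without, which is 1.47-fold lower (log2 ratio -0.56). Both values exceeded 13.7, the median non-control signal of the 2 arrays together, which served as a floor: a lower signal was raised to it before the ratio was taken, so that a ratio with 1 array under it is a bound. The files do not say which part of the transcript each probe set detects. ZFAS1 is therefore represented by its brightest probe set without the _x_at suffix, 226835_s_at, and the mean over all 4 sets was 0.31.

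GAS5 was represented by 1 probe set, 1560402_at, which was dim. Its signal was 43.1 with Glivec and 30.2 without, a 1.43-fold difference (log2 ratio 0.52). The spread between probe sets of the same gene is the only available error, and it does not cover differences between cultures. Pooled over 5603 genes, this SD was 0.33 in log2 units, so the GAS5 ratio is 1 reading of less than 2 such SDs. The ratio of 0.57 that represents ZFAS1, by 226835_s_at, was also less than 2 such SDs.

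**Figure D1:**
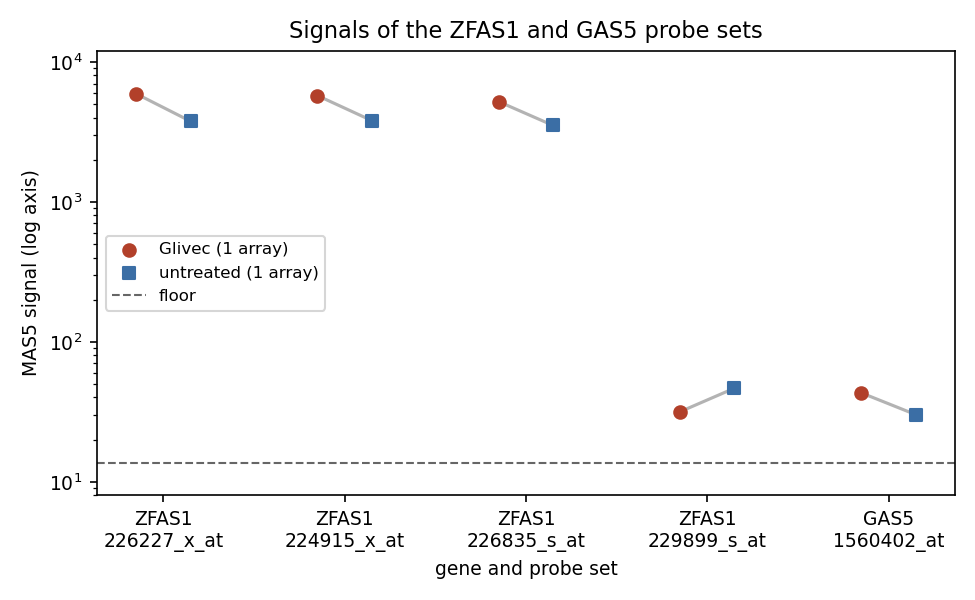
MAS5 signal (log axis) of the 4 ZFAS1 probe sets and the GAS5 probe set, with the Glivec array as circles left of the untreated array as squares, 1 array each, and the floor of 13.7 as a dashed line. The 3 bright ZFAS1 sets and the GAS5 set are higher with Glivec, and the dim ZFAS1 set 229899_s_at is lower.

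Neither gene reached a 2-fold difference. Of the 2 members, 0 were at least 2-fold higher with Glivec, where 3.13% of 12703 measured genes were, and 0 were at least 2-fold lower, where 2.63% were. A gene was measured where at least 1 array exceeded the floor. The log2 ratio of ZFAS1 exceeded that of 85.6% of measured genes, and that of GAS5 exceeded 83.0%. The median log2 ratio was 0.54 over the 2 members and 0.10 over all measured genes.

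These directions hold relative to the other genes on the array. The 18 hybridisation spike-in probe sets were higher on the Glivec array, with a median log2 ratio of 0.74, and scaling to them turned ZFAS1 to -0.17 and GAS5 to -0.22 while the median of all genes moved to -0.59. Removal of the trend of ratio on signal left ZFAS1 at 0.32 and GAS5 at 0.35, and quantile normalization left them at 0.33 and 0.38. Spike-in scaling divides the whole Glivec array by 1 constant, so it cannot change the order of ratios among genes above the floor on both arrays. With the trend removed and with quantile normalization both members stayed above the median of all genes. That median was 0.04 without the trend and 0.05 with quantile normalization.

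The 16 jointly annotated probe sets were spread over both directions. Each of their rows joins 1 host symbol with snoRNA symbols, and all 28 joined snoRNA genes lie inside the span of that host in the RefSeq gene table. Of the 16, 7 were higher with Glivec and 9 lower, with log2 ratios from -1.43 to 0.88 and a median of -0.23. All probe sets above the floor on both arrays had a median of 0.08. None of the 16 was at least 2-fold higher and 3 were at least 2-fold lower, where 2.81% and 2.47% of the 24832 probe sets above the floor on both arrays were. Of these 3, 2 share a row content, so the probe sets are not separate readings of 16 loci.

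The largest split lay among the 4 rows that join GAS5 with 8 snoRNAs, which guide ribosomal RNA methylation. Probe set 224741_x_at had a signal of 3666 with Glivec and 2647 without (log2 ratio 0.47), and 224841_x_at had 3280 with Glivec and 2441 without (0.43). These bright sets were higher with Glivec by about as much as the GAS5 set 1560402_at. Both carry the _x_at suffix of sets that can bind other transcripts, so they need not be independent readings of GAS5. Probe set 227517_s_at had 272.4 with Glivec and 732 without, or 2.69-fold lower. Probe set 228238_at had 143.2 with Glivec and 324.8 without, or 2.27-fold lower. Over the 5 probe sets annotated to GAS5 alone or jointly, 3 were higher with Glivec and 2 lower, and the direction did not follow the signal, since 1560402_at, at 0.52, had the lowest signals. Which transcripts or parts of them each set binds was not tested.

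All rows that join SNHG15, SNHG16 or SNHG12 with their snoRNAs were lower with Glivec. Probe set 225699_at, which joins SNHG15 and SNORA9, had a signal of 244.1 with Glivec and 648.8 without, 2.66-fold lower. The pair that joins SNHG16 with SNORD1A and SNORD1C gave like readings. Of this pair, 224601_at had 857 with Glivec and 1347 without (log2 ratio -0.65), and 224603_at had 792 with Glivec and 1314 without (-0.73). The 3 rows that join SNHG12 with SNORA16A, SNORA44 and SNORA61 had log2 ratios of -0.19, -0.40 and -0.81, with signals of 95.8 to 270.5 with Glivec and 148.6 to 307.9 without. The 3 readings were all below 0 and spanned 0.62 from lowest to highest. The reading of -0.19 was smaller in size than the pooled SD of 0.33.

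Of the 8 rows with a mean signal over 1000, 6 were higher with Glivec, and the 2 lower ones were the SNHG16 pair. Of all probe sets that bright and above the floor on both arrays, 63.2% were higher. The limit of 1000 was chosen after the values were seen. Probe set 225547_at, which joins SNHG6 and SNORD87, had 7360 with Glivec and 5168 without (log2 ratio 0.51). Probe set 225155_at, which joins SNHG5 with SNORD50A and SNORD50B, had 3792 with Glivec and 2603 without (0.54). Probe set 225220_at, with SNHG8 and SNORA24, was at 0.22, and 224610_at, with SNHG1 and its 8 snoRNAs, was at 0.13 from signals of 1455 with Glivec and 1331 without. The SNHG1 and SNHG8 readings were smaller than the pooled SD of 0.33. The 2 rows that join SNHG7 with SNORA17A and SNORA17B disagreed: 229050_s_at had 562.6 with Glivec and 304.8 without (0.88), whereas the dim 1552729_at had 45.7 with Glivec and 55.2 without (-0.27).

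**Figure D2:**
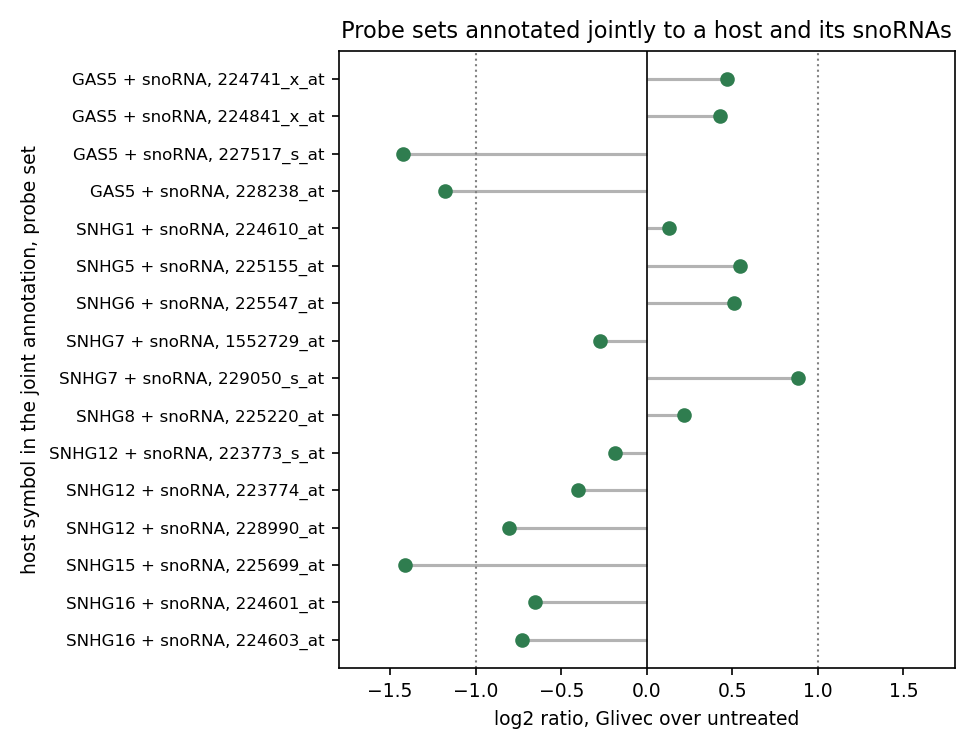
Log2 ratio, Glivec over untreated, of the 16 probe sets whose row joins a host symbol with snoRNA symbols, 1 array per group, with dotted lines at 2-fold. The 3 sets past 2-fold are lower with Glivec, 2 in the GAS5 rows and 1 in the SNHG15 row, and the sets in the SNHG5 and SNHG6 rows lie near 0.5.

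**Figure D3:**
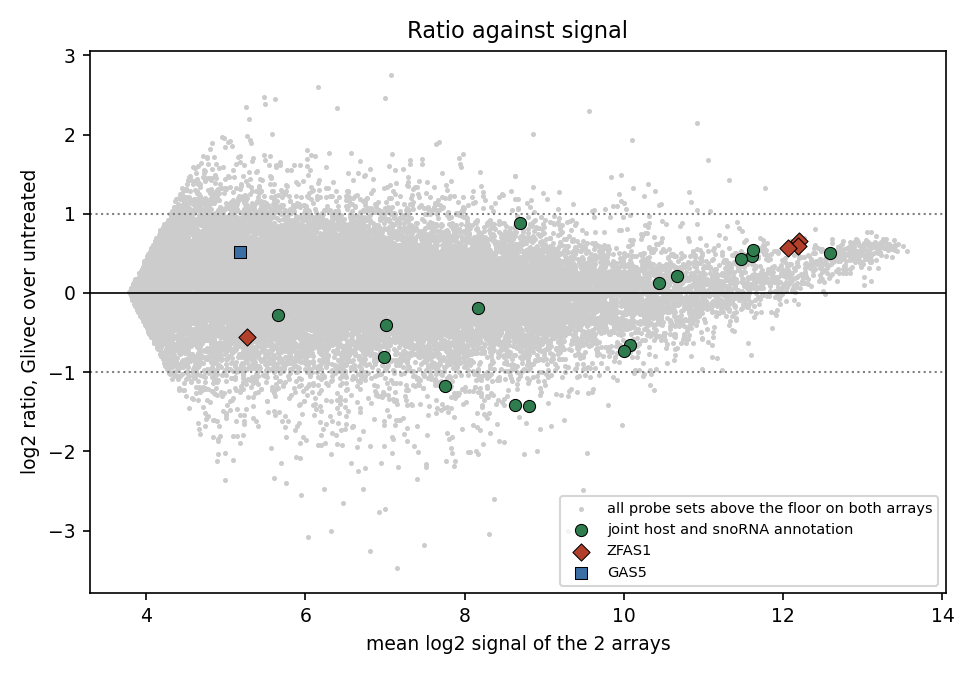
Log2 ratio, Glivec over untreated, against the mean log2 signal of the 2 arrays for all 24832 probe sets above the floor on both (grey), with jointly annotated host rows, ZFAS1 and GAS5 marked and dotted lines at 2-fold. The grey cloud bends upward at the bright end, where the 3 bright ZFAS1 sets and the brightest joint rows lie.

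The ratio itself depended on the signal, as the plot of ratio against signal shows. Without that trend the row of SNHG6 and SNORD87 was at 0.19 and the bright GAS5 rows at 0.29 and 0.26. The SNHG15 row stayed at -1.40, and the GAS5 rows 227517_s_at and 228238_at stayed at -1.41 and -1.20. The trend was not confined to bright sets. Without it the dim GAS5 set 1560402_at moved from 0.52 to 0.35, and the dim ZFAS1 set 229899_s_at from -0.56 to -0.72. With the trend removed, 7 of the 16 were still above 0 and 3 were at least 2-fold lower, as were 412 of 12703 measured genes. With spike-in scaling 1 of the 16 was above 0 and 8 were at least 2-fold lower. On that scale all ratios shift downward: 2484 of 12836 measured genes were at least 2-fold lower, and the median of all genes was -0.59.

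Other noncoding host genes with probe sets of their own gave a mixed picture. Of 19 listed, 9 had such a probe set and 6 were measured, with 2 higher, 4 lower and a median log2 ratio of -0.13. SNHG17 was lower by both its probe sets, with signals of 199.0 with Glivec and 404.9 without by 65588_at, and 194.3 with Glivec and 396.0 without by 225857_s_at, both 2.03-fold to 2.04-fold lower. SNHG17 was the 1 gene of the 6 at least 2-fold different. DANCR had signals of 690 with Glivec and 898 without (-0.38). SNHG32 had 2920 with Glivec and 2255 without (0.37), and EPB41L4A-AS1 was at 0.28 by its brighter probe set and 0.49 by the other.

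Protein-coding snoRNA hosts of the translation machinery lay close to ZFAS1. All 11 measured of 29 listed were higher with Glivec, against 59.0% of all measured genes. Their median log2 ratio was 0.54, their range was 0.11 to 0.62, and 0 reached 2-fold. The ribosomal protein genes RPL37, RPL30 and RPL23A were at 0.62, 0.62 and 0.61 by the probe sets that represent them. Another 3 RPL37 probe sets were at 0.09, 0.10 and 0.37. The gene TPT1, which encodes a translationally controlled tumour protein, was at 0.58. The value of this list depended on scaling and on the probe sets used: its median was 0.19 without the signal trend, 0.04 after quantile normalization, -0.20 on the spike-in scale and 0.11 over the 3 genes with a plain _at probe set. With the first pair of these settings ZFAS1 kept the higher value (0.32 and 0.33), and no test of that difference was possible. Other protein-coding hosts had a median of -0.23 over 5 genes, 1 of them higher. TAF1D, of the RNA polymerase I selectivity factor, was 2.09-fold lower, and WDR43, a processome protein, had 105.4 with Glivec and 197.9 without. HSPA9, a mitochondrial chaperone, was at -0.23 and RCC1, a nucleotide exchange factor for Ran, at -0.21.

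Transcripts of the proteins that package snoRNAs had mostly lower signals with Glivec, whereas 59.0% of all measured genes had higher ones. Of 8 core proteins, 6 were measured, 5 were lower and 1 higher, with a median log2 ratio of -0.46. SNU13, which binds the kink-turn of box C/D snoRNAs, had signals of 363.5 with Glivec and 739 without, 2.03-fold lower, or -0.46 by a dim second probe set. GAR1, of the H/ACA particle, was at -0.90, the box C/D scaffold gene NOP58 at -0.49 and the H/ACA gene NOP10 at -0.42. Of 11 assembly and release factors, all measured, 9 were lower and 2 higher, with a median of -0.24 and 0 past 2-fold. NOLC1, a nucleolar chaperone of snoRNPs, had 919 with Glivec and 1807 without (-0.97), the helicase gene RUVBL1 was at -0.93, NUFIP1 at -0.69 and ZNHIT6 at -0.60. These are the probe sets that represent the genes. Dimmer sets were at -0.61 and -0.66 for NOLC1, at -0.85 and, past 2-fold, -1.23 for NUFIP1, and at -0.12 for ZNHIT6.

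Factors of nonsense-mediated decay showed no common direction. Of 14 listed, 7 were measured, 3 higher and 4 lower, with a median log2 ratio of -0.09. EIF4A3, the helicase of the exon junction complex, had 1279 with Glivec and 2066 without (-0.69), and SMG9, of the SMG1 kinase complex, had 104.8 with Glivec and 67.1 without (0.64). UPF2 was at 0.36 and RBM8A at -0.31, with other RBM8A probe sets from -0.73 to 0.24. For the setting, MYC had signals of 557 with Glivec and 3781 without, PDGFRA was at -0.60 and FIP1L1 at -0.25. A dim PDGFRA probe set, 215305_at, was at 0.38.

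**Figure D4:**
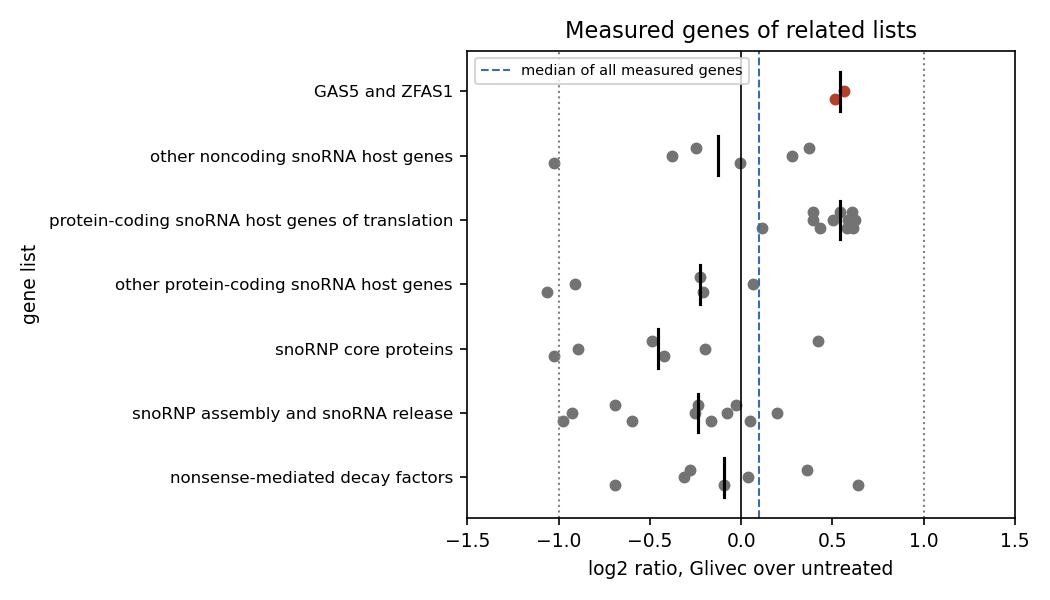
Log2 ratio, Glivec over untreated, of the measured genes of each list (points), with the list median as a black bar, the median of all measured genes as a dashed line and dotted lines at 2-fold. GAS5 and ZFAS1 lie beside the protein-coding hosts of translation (median 0.54), and the snoRNP core proteins lie lowest (median -0.46).

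The label of the cells was checked against marker genes. Of 8 eosinophil and myeloid markers, 6 had a probe set of their own and 5 were measured. PRG2, the major basic protein, had signals of 6302 with Glivec and 4744 without, MPO reached 694 with Glivec and 549.5 without, and CSF2RB had 390.6 with Glivec and 693 without. The granule peroxidase gene EPX had 27.2 with Glivec and 12.6 without, and CLC had 13.2 with Glivec and 19.4 without. IL5RA, an interleukin 5 receptor gene listed among these markers, was below the floor on both arrays by all its probe sets. The summed signal of 4 T cell markers was 27.7 with Glivec and 31.7 without, that of the 2 B cell markers with a probe set was 108.6 with Glivec and 67.0 without, mostly CD79A, that of 2 erythroid markers was 40.1 with Glivec and 32.1 without, and that of 3 stromal markers 75.1 with Glivec and 74.4 without. The GAPDH signal ratio of the 3′ over the 5′ control probe set was 1.04 with Glivec and 0.93 without, and that of ACTB was 1.23 with Glivec and 1.17 without. The part of these differences in the results was not tested.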

How the data were processed

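The deposited table holds signal intensities, 1 per probe set, made by the authors with MAS5, per the submitters' processing notes. Its version was not given in the sources used here. After trimming 2% at each end the mean was 99.99 on both arrays, so they had been scaled to 1 level before deposit. Of 54675 probe sets, 62 are controls. Names came from the platform annotation, which can be old: 41097 probe sets have 1 symbol, 1801 several and 11777 none. Entrez identifiers matched 41043 to RefSeq (GRCh38.p14) and changed 0 symbols.

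Signals under the floor (13.7, the median of non-control signals) were raised to it before log2. A gene took its probe set of highest mean signal, with _x_at sets used only where no other existed. A log2 ratio of 1 in size (2-fold) was the threshold. The calculation was tested on simulated data with known changes in genes well above the floor. That test did not cover dim genes or spike-in scaling. Named genes were all members, the 4 measured genes with the largest ratios in size of each related list, and MYC, PDGFRA and FIP1L1. Members, lists and alternatives were chosen with earlier results of these data known. The gene pattern most like a member was not sought, since 2 arrays give 1 ratio per gene. Alternatives covered scaling, floor, pseudocount (1), probe set summary and threshold. Python 3.11.15, numpy 2.4.6, pandas 2.3.3, statsmodels 0.14.6 (loess span 0.3) and matplotlib 3.10.9 were used.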

Additional observations from a re-analysis of the deposited data

How the results depend on the processing

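No paired analysis was possible because Glivec and untreated cells have 1 array each, and for the same reason no replicate could be left out. The member median of 0.54 stayed between 0.34 and 0.58 under all alternatives except spike-in scaling, where it was -0.20. Under any alternative 0 members passed the threshold, including the 1.5-fold and 3-fold thresholds. At 1.5-fold this rests on the probe set that represents ZFAS1, at 1.48-fold. Its bright _x_at sets were at 1.51-fold and 1.57-fold, and the settings were varied 1 at a time. ZFAS1 has no value with only plain _at probe sets, and GAS5 none with the floor at the 75th percentile. The genes at least 2-fold higher and lower, 398 and 334 in all, numbered 43 and 2484 with spike-in scaling, 2252 and 1705 with no floor and a pseudocount of 1, 91 and 176 with the 75th percentile floor, 1710 and 1058 at 1.5-fold and 56 and 86 at 3-fold. The higher genes alone numbered 735 with the 40th percentile floor and 234 with the 60th. The share of higher among called genes, 54.4%, was 42.2% with quantile normalization, 41.6% with median centring, 39.9% without the signal trend and 1.7% with spike-in scaling. The GAS5 probe set and the dim ZFAS1 set have signals within a few fold of the floor. Floors and thresholds change these counts by construction, and the cause of the other shifts was not tested.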

Other observations

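Pooled over genes, rows that join a ribosomal protein gene with snoRNAs differed in direction by signal. Of 53 probe sets above the floor on both arrays whose row joins a ribosomal protein gene with snoRNAs, 42 had a mean signal over 1000, and all 42 were higher with Glivec, with a median log2 ratio of 0.52 (0.21 to 0.64). The other 11 were dimmer, and 9 of these were lower with Glivec, with a median of -0.19. Of the 16 rows with a host symbol considered here, 8 had a mean signal over 1000, with 6 higher and a median of 0.32, and 8 were dimmer, with 7 lower and a median of -0.60. Of all probe sets above the floor on both arrays, 63.2% of those over 1000 were higher, with a median of 0.11. Of the dimmer ones 56.2% were higher, with a median of 0.07. All these values are as deposited, where the ratio rises at the brightest signals. The ribosomal protein rows were not examined without that trend or beside probe sets of equal signal. Without it the median of the protein-coding snoRNA hosts of translation fell from 0.54 to 0.19. The limit of 1000 and this set of rows were chosen after the values were seen, and several rows share a gene. No comparison was made within a locus, and what the dimmer probe sets bind was not tested.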
